A study of Mus musculus with 5 samples.

Results

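The mitochondrial carrier family was taken as every gene of the deposited table whose name starts with Slc25a. The rule found 33 of 12930 genes, and all 33 belong to the 12088 genes with a value in every siRNA library. GENCODE M21, an annotation of mouse build GRCm38, holds 47 protein-coding Slc25a genes. The other 14 (Slc25a2, Slc25a18, Slc25a21, Slc25a24, Slc25a27, Slc25a31, Slc25a33, Slc25a34, Slc25a41, Slc25a44, Slc25a45, Slc25a46, Slc25a48 and Slc25a54) were not found among the gene names and were not analysed here.

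Slc25 proteins sit mostly in the inner mitochondrial membrane and exchange solutes between the cytosol and the matrix: nucleotides and phosphate for oxidative phosphorylation, carboxylates and acylcarnitines for fuel use, amino acids, cofactors, and iron. They are encoded in the nucleus and inserted into the membrane after synthesis in the cytosol. Dhx30 is an RNA helicase that takes part in mitochondrial ribosome assembly, and Tfam packages mitochondrial DNA and takes part in starting its transcription. Both knockdowns therefore target mitochondrial gene expression, while the carriers are products of nuclear genes.

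The samples were OG2 mouse embryonic stem cells, labelled with the strain (CBA/CaJxC57BL/6J) with 129Sv/Jae. All 5 libraries came from cells kept for 24 h in N2B27 medium with LIF, PD0325901 and CHIR99021. The cells were then moved for 36 h to a differentiation medium holding bFGF, Activin A and knockout serum replacement, and were transfected at that move with 50 nM siRNA. The groups were siRNA against Dhx30 (siDhx30, 2 libraries), siRNA against Tfam (siTfam, 2 libraries) and a negative control (NC, 1 library). No label says that the replicates were separate cultures, so p-values measure only how far these libraries differ, and that spread may be technical. In bulk RNA, fewer cells of a type and less RNA per cell cannot be told apart.

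Each gene has 1 log2 ratio for each of the 4 siRNA libraries, with no level, count or depth, so depth is unknown. The ratios are given here as siRNA over NC, with the sign of the deposited values turned. All 1574 deposited values of the 842 genes with a missing value were below 0, against 23546 of 48352 among the complete genes, and the denominator is inferred from this pattern. With the deposited sign kept, every direction against NC and between the knockdowns would reverse. The single NC library enters all 4 ratios, so its own error is shared by both comparisons against NC. Its spread could not be measured and was assumed equal to that of the siRNA libraries. Every SE, interval and p-value against NC rests on that assumption.

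The targeted genes gave little evidence of knockdown at the RNA level. Dhx30 read -0.40 and -0.20 in the siDhx30 libraries (mean -0.30, SE 0.20, limma adjusted p = 0.998). Tfam read -0.28 and -0.017 in the siTfam libraries (mean -0.15, SE 0.22, limma adjusted p = 0.987). In the other knockdown, Dhx30 read 0.014 and 0.036 and Tfam 0.12 and -0.014. Tfam in siTfam replicate 2 was thus no lower than NC to any visible extent, and much like siDhx30 replicate 2. The labelled target lay under NC in each library of its knockdown, but by less than the test could separate from 0. The group names below are therefore those of the labels. The cell type could not be checked on levels. Of 8 naive pluripotency markers only Esrrb and Tfcp2l1 were found complete, as were 3 of 5 formative markers, 3 of 6 fibroblast and feeder markers and 3 of 7 primitive endoderm markers. In siDhx30 and siTfam the medians were -0.032 and 0.36 for naive, 0.17 and 0.056 for formative and 0.27 and 0.32 for fibroblast and feeder markers. Markers also differed within lists and between replicates. Tfcp2l1 read -0.24, 0.031, -1.14 and 1.71, and Esrrb 0.060, 0.019, 0.85 and 0.020. The high naive values in siTfam thus stand in 1 library for each gene. Of the formative markers, Otx2 read 0.37, 0.33, 0.63 and 0.43 and Lef1 0.23, 0.11, 0.082 and 0.0305. Dnmt3b, of the same list, read -0.056, 0.16, -0.13 and -0.12. Of the fibroblast and feeder markers, Col1a2 read -0.87, -0.62, -0.73 and 0.083 and Thy1 0.63, 0.75, 0.79 and -0.15. The 3 primitive endoderm markers had a median of -0.53 in siDhx30 and -1.46 in siTfam, led by Col4a2, a basement membrane collagen, at -0.79, -1.07, -1.06 and -2.21. Dab2, an endocytic adaptor, read -1.04 and -0.021 in siDhx30 and -1.62 and -1.30 in siTfam. Another marker of that list, the transcription factor Gata6, has a value in siDhx30 replicate 2 alone, at 1.58. With the sign turned, all 1574 values of genes with a missing value lie above NC, so its side says nothing of this marker. The part of these markers in the carrier values was not tested.

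No Slc25a transcript passed the test after either knockdown. At an adjusted p of 0.05 (limma, Benjamini-Hochberg over 12088 genes), 0 of 33 carriers were called in siDhx30 against NC, where 0.0% of all genes were called. The count was also 0 in siTfam against NC (background 0.0%) and 0 in siDhx30 against siTfam (background 0.0%). At an unadjusted p under 0.05, 1 carrier (Slc25a43) was below the threshold in siDhx30 against NC, or 3.03% of the family against 5.04% of all genes. In siTfam against NC it was 0 carriers against 6.11% of all genes, and between the knockdowns 0 carriers against 2.79%. The smallest adjusted p of any gene in the table was 0.298, 0.285 and 0.999 in these comparisons. The typical standard error of a carrier's difference was 0.24 against NC and 0.20 between the knockdowns (median over the 33).

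The carriers as a group sat close to NC. Their median log2 difference was -0.042 in siDhx30, beside -0.012 over all genes, and 0.0064 in siTfam, beside -0.020. The median absolute difference was 0.12 for the carriers and 0.20 for all genes in siDhx30, and 0.13 and 0.21 in siTfam. Between the knockdowns the median was -0.059 for the carriers and -0.0015 for all genes, with median absolute values of 0.15 for both.

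**Figure D1:**
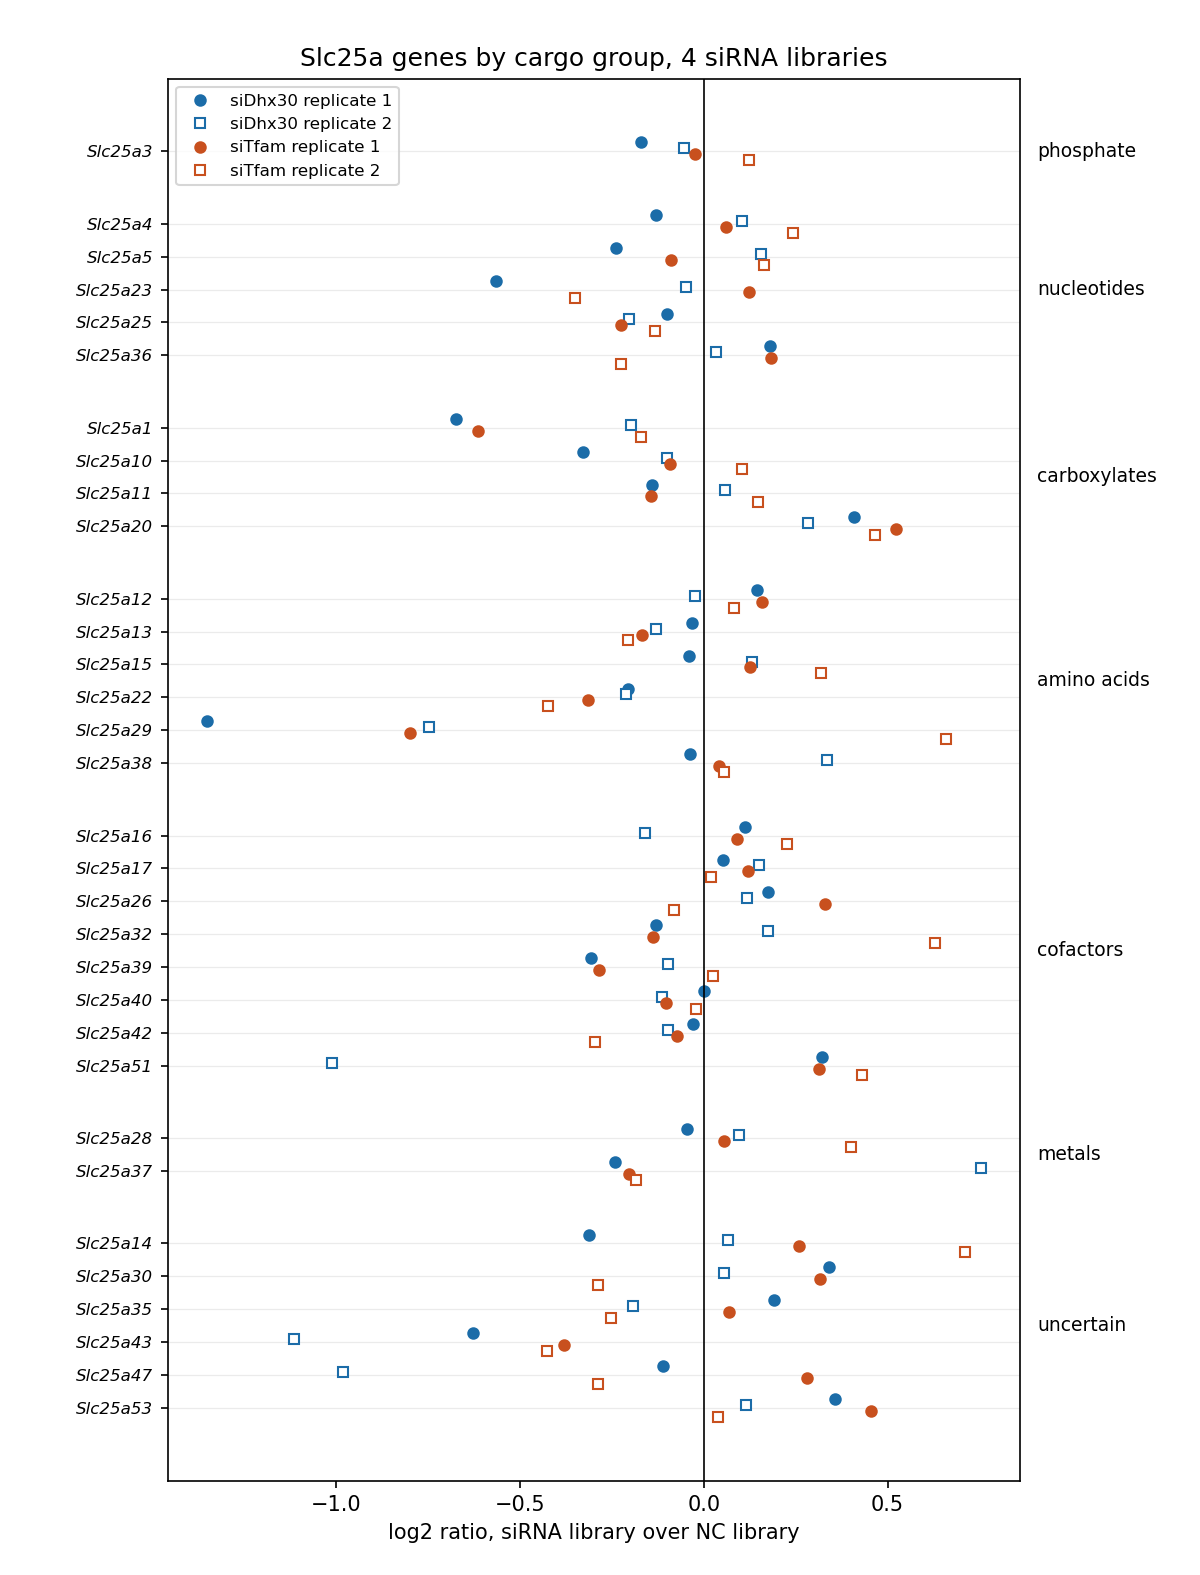
Log2 ratio over NC (axis, log2 units) of the 32 carriers drawn, in the 2 siDhx30 and 2 siTfam libraries, ordered by cargo, with 1 point per library. Most points lie near 0, and Slc25a29 has the lowest single value, -1.35 in siDhx30 replicate 1.

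The carriers were also counted by whether both libraries of a knockdown lay on the same side of NC. In siDhx30, 6 carriers were above NC in both libraries (18.2%, against 32.1% of all genes) and 13 were below (39.4%, against 34.9%). In siTfam, 11 were above in both (33.3%, against 32.0%) and 9 below (27.3%, against 34.4%). These shares are counts over carriers that share libraries and the NC sample, and are given without a test.

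The transporters that serve oxidative phosphorylation directly had values near the control, with intervals too wide to show a lack of change. The 95% intervals in siDhx30 and siTfam were -0.65 to 0.43 and -0.49 to 0.59 for Slc25a3. They were -0.62 to 0.59 and -0.45 to 0.76 for Slc25a4, and -0.79 to 0.71 and -0.71 to 0.78 for Slc25a5. Slc25a3, the phosphate carrier, read -0.17 and -0.053 in siDhx30 and -0.023 and 0.12 in siTfam. Slc25a4, ADP/ATP translocase 1, read -0.13 and 0.10 in siDhx30 and 0.060 and 0.24 in siTfam. Slc25a5, ADP/ATP translocase 2, read -0.24 and 0.16 in siDhx30 and -0.090 and 0.16 in siTfam. For both translocases the siDhx30 replicates lay on opposite sides of NC. A transcribed processed pseudogene, Slc25a5-ps, resembles Slc25a5, so the assignment of its reads is uncertain.

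Among the other nucleotide carriers, Slc25a36, which moves pyrimidine nucleotides, read 0.18 and 0.032 in siDhx30 and 0.18 and -0.22 in siTfam. The ATP-Mg/phosphate carrier Slc25a25 read -0.10 and -0.20 in siDhx30 and -0.23 and -0.13 in siTfam, below NC in all 4 libraries. Its relative Slc25a23 read -0.57 and -0.047 in siDhx30 and 0.12 and -0.35 in siTfam, with replicates far apart in each knockdown. Exons of Slc25a25 and Slc25a23 overlap the opposite-strand genes Naif1 and Gm17168. Over the 5 nucleotide carriers the median difference was -0.041 in siDhx30 and -0.020 in siTfam, and 0 of 5 passed the test.

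The carboxylate group held the carrier of highest mean difference against NC in both knockdowns, Slc25a20, and 1 of the lower ones, Slc25a1. Slc25a29, Slc25a43 and Slc25a47 lay below Slc25a1 in siDhx30, and Slc25a43 did in siTfam. Slc25a20, which brings acylcarnitines into the matrix for fatty acid oxidation, was above NC in all 4 libraries, at 0.41 and 0.28 in siDhx30 and 0.52 and 0.47 in siTfam. Its mean difference in siTfam was 0.49 (SE 0.19, 95% interval -0.021 to 1.01), 1.41-fold NC, with unadjusted p = 0.0563 and limma adjusted p = 0.828. In siDhx30 it was 0.35 (SE 0.19, interval -0.17 to 0.86, limma adjusted p = 0.998). Both intervals include 0, and 91.0% of all genes had a lower siTfam difference. All 4 values come against the same NC library.

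Slc25a1, the citrate carrier that supplies cytosolic acetyl-CoA, was below NC in all 4 libraries, at -0.67 and -0.20 in siDhx30 and -0.61 and -0.17 in siTfam. Its mean difference was -0.44 (SE 0.33) in siDhx30 and -0.39 (SE 0.33) in siTfam, and the lower value stood in the library numbered 1 of each knockdown. Slc25a10, the dicarboxylate carrier, read -0.33 and -0.099 in siDhx30 and -0.092 and 0.10 in siTfam. Slc25a11, the oxoglutarate/malate carrier of the malate-aspartate shuttle, read -0.14 and 0.058 in siDhx30 and -0.14 and 0.15 in siTfam. The last 2 genes showed no side common to all 4 libraries. An exon of Slc25a10 overlaps the antisense gene Gm11788, and an exon of Slc25a11 overlaps Rnf167 on the other strand.

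The aspartate/glutamate carriers, the other arm of that shuttle, also had values close to NC. Their 95% intervals in siTfam, -0.42 to 0.66 for Slc25a12 and -0.69 to 0.32 for Slc25a13, are too wide to show a lack of change. Slc25a12 read 0.15 and -0.022 in siDhx30 and 0.16 and 0.083 in siTfam. Slc25a13 read -0.032 and -0.13 in siDhx30 and -0.17 and -0.21 in siTfam. Slc25a13 was below NC in all 4 libraries, by at most 0.21.

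The glutamate carrier Slc25a22 was below NC in all 4 libraries, at -0.20 and -0.21 in siDhx30 and -0.31 and -0.42 in siTfam. Its mean difference was -0.21 (SE 0.18) in siDhx30 and -0.37 (SE 0.18, unadjusted p = 0.113) in siTfam. Its replicates were close together, and both siDhx30 values lay above both siTfam values. The ornithine carrier Slc25a15 read -0.040 and 0.13 in siDhx30 and 0.13 and 0.32 in siTfam. The glycine carrier Slc25a38, which serves heme synthesis, read -0.036 and 0.33 in siDhx30 and 0.041 and 0.055 in siTfam.

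Slc25a29, a carrier of basic amino acids, had the lowest mean difference in the family and also one of the widest replicate gaps. It read -1.35 and -0.75 in siDhx30 and -0.80 and 0.66 in siTfam. The mean was -1.05 in siDhx30 (SE 0.71, 95% interval -3.05 to 0.95, limma adjusted p = 0.998) and -0.071 in siTfam (SE 0.71). The siTfam replicates lay on opposite sides of NC, and the interval in siDhx30 spans 0.

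Carriers of cofactors varied around NC. Slc25a26, for S-adenosylmethionine, read 0.18 and 0.12 in siDhx30 and 0.33 and -0.082 in siTfam. Slc25a32, for folate and FAD, read -0.13 and 0.17 in siDhx30 and -0.14 and 0.63 in siTfam. Neither gene stayed on the same side of NC in all 4 libraries.

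The glutathione importers Slc25a39 and Slc25a40 lay slightly below NC on average. Slc25a39 read -0.31 and -0.098 in siDhx30 and -0.28 and 0.026 in siTfam. Slc25a40 read 9.6e-06 and -0.11 in siDhx30 and -0.10 and -0.021 in siTfam. Slc25a51, which carries NAD into the matrix, read 0.32 and -1.01 in siDhx30 and 0.31 and 0.43 in siTfam. Its mean was -0.34 (SE 0.61) in siDhx30 and 0.37 (SE 0.61) in siTfam, and the low siDhx30 value rests on replicate 2. The coenzyme A carrier Slc25a42 was below NC in all 4 libraries, at -0.030, -0.097, -0.071 and -0.30. Slc25a16 and the peroxisomal carrier Slc25a17 ranged between -0.16 and 0.23. Over the 9 cofactor carriers the median difference was -0.057 in siDhx30 and 0.069 in siTfam, with 0 of 9 past the test.

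The iron importers, the mitoferrins, differed between replicates. Slc25a28, mitoferrin 2, read -0.046 and 0.096 in siDhx30 and 0.056 and 0.40 in siTfam. Slc25a37, mitoferrin 1, read -0.24 and 0.75 in siDhx30 and -0.20 and -0.19 in siTfam. The value of 0.75 stands alone among the 4, and exons of Slc25a37 overlap the opposite-strand genes Gm31748 and Gm27223.

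Carriers of uncertain cargo included Slc25a43, the carrier with the smallest p in siDhx30 against NC. It was below NC in all 4 libraries, at -0.63 and -1.11 in siDhx30 and -0.38 and -0.43 in siTfam. The siDhx30 mean was -0.87 (SE 0.28, 95% interval -1.64 to -0.10), or 54.7% of NC, with unadjusted p = 0.0348 and limma adjusted p = 0.925, and 4.26% of all genes had a lower value. The siTfam mean was -0.40 (SE 0.28). Without siDhx30 replicate 1 the difference was -1.11 (unadjusted p = 0.0187) and without siDhx30 replicate 2 it was -0.63 (unadjusted p = 0.0835). Without either siTfam library the difference was unchanged, with unadjusted p = 0.0666. Each of these fits has fewer residual degrees of freedom than that on all libraries.

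Slc25a14, an uncoupling protein homologue, read -0.31 and 0.065 in siDhx30 and 0.26 and 0.71 in siTfam. Its mean was -0.12 (SE 0.31) in siDhx30 and 0.48 (SE 0.31, unadjusted p = 0.195) in siTfam. Slc25a47 read -0.11 and -0.98 in siDhx30 and 0.28 and -0.29 in siTfam, for a siDhx30 mean of -0.54 (SE 0.49) and a siTfam mean of -0.0033. Neither interval left out 0. Slc25a30, Slc25a35 and Slc25a53 ranged between -0.29 and 0.46, and Slc25a53 was above NC in all 4 libraries.

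Slc25a20 and Slc25a43, chosen after their values were seen as the carriers with the smallest unadjusted p against NC in siTfam and in siDhx30, are shown with the DNA just upstream of their starts. The bases from -250 to -51 of the RefSeq start (GRCm38.p6) are printed 5′ to 3′, with GC boxes (GGGCGG or its reverse complement CCGCCC) in capitals. The Slc25a20 window lies at chr9:108661886-108662085 on the plus strand and that of Slc25a43 at chrX:36743382-36743581 on the plus strand. Neither overlaps an annotated exon.
Slc25a20: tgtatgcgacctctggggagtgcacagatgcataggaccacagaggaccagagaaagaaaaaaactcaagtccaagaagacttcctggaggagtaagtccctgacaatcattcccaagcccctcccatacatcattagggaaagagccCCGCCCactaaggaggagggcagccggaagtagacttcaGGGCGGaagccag
Slc25a43: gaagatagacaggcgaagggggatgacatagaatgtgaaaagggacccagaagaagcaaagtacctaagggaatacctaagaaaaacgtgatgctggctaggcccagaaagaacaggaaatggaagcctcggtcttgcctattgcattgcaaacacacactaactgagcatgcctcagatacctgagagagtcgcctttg
The Slc25a20 window holds 2 GC boxes and is 53.5% GC, and that of Slc25a43 holds none of the motifs searched and is 47.5% GC. The motifs, on both strands, were the GC box, CCAAT, the E-box CACGTG, TGACGTCA and GCGCATGC. Over the 36 windows of the 27 carriers with a RefSeq entry, the GC box stood in 47.2%, against 24.6% of all 32817 windows of the same length. CCAAT stood in 41.7% against 28.4%, CACGTG in 13.9% against 4.34%, TGACGTCA in 5.56% against 0.829% and GCGCATGC in 0.0% against 1.39%. Some carriers have several windows, and a match is a description of letters only.

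Between the knockdowns, 2 carriers were higher in both siDhx30 libraries than in both siTfam libraries (Slc25a13 and Slc25a22), or 6.06%, against 14.7% of all genes. In the other direction 5 were lower (Slc25a3, Slc25a10, Slc25a14, Slc25a20 and Slc25a43), or 15.2%, against 14.3%. The largest differences, siDhx30 minus siTfam, were -0.98 for Slc25a29 (SE 0.58), -0.72 for Slc25a51 (SE 0.50) and -0.61 for Slc25a14 (SE 0.25, 95% interval -1.32 to 0.10, unadjusted p = 0.0760). Slc25a47 followed at -0.54 (SE 0.40) and Slc25a43 at -0.47 (SE 0.23). All 33 had a limma adjusted p of 0.999. The siDhx30 values of Slc25a14, -0.31 and 0.065, lay below its siTfam values, 0.26 and 0.71, without overlap, while those of Slc25a29 and Slc25a51 overlapped.

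**Figure D2:**
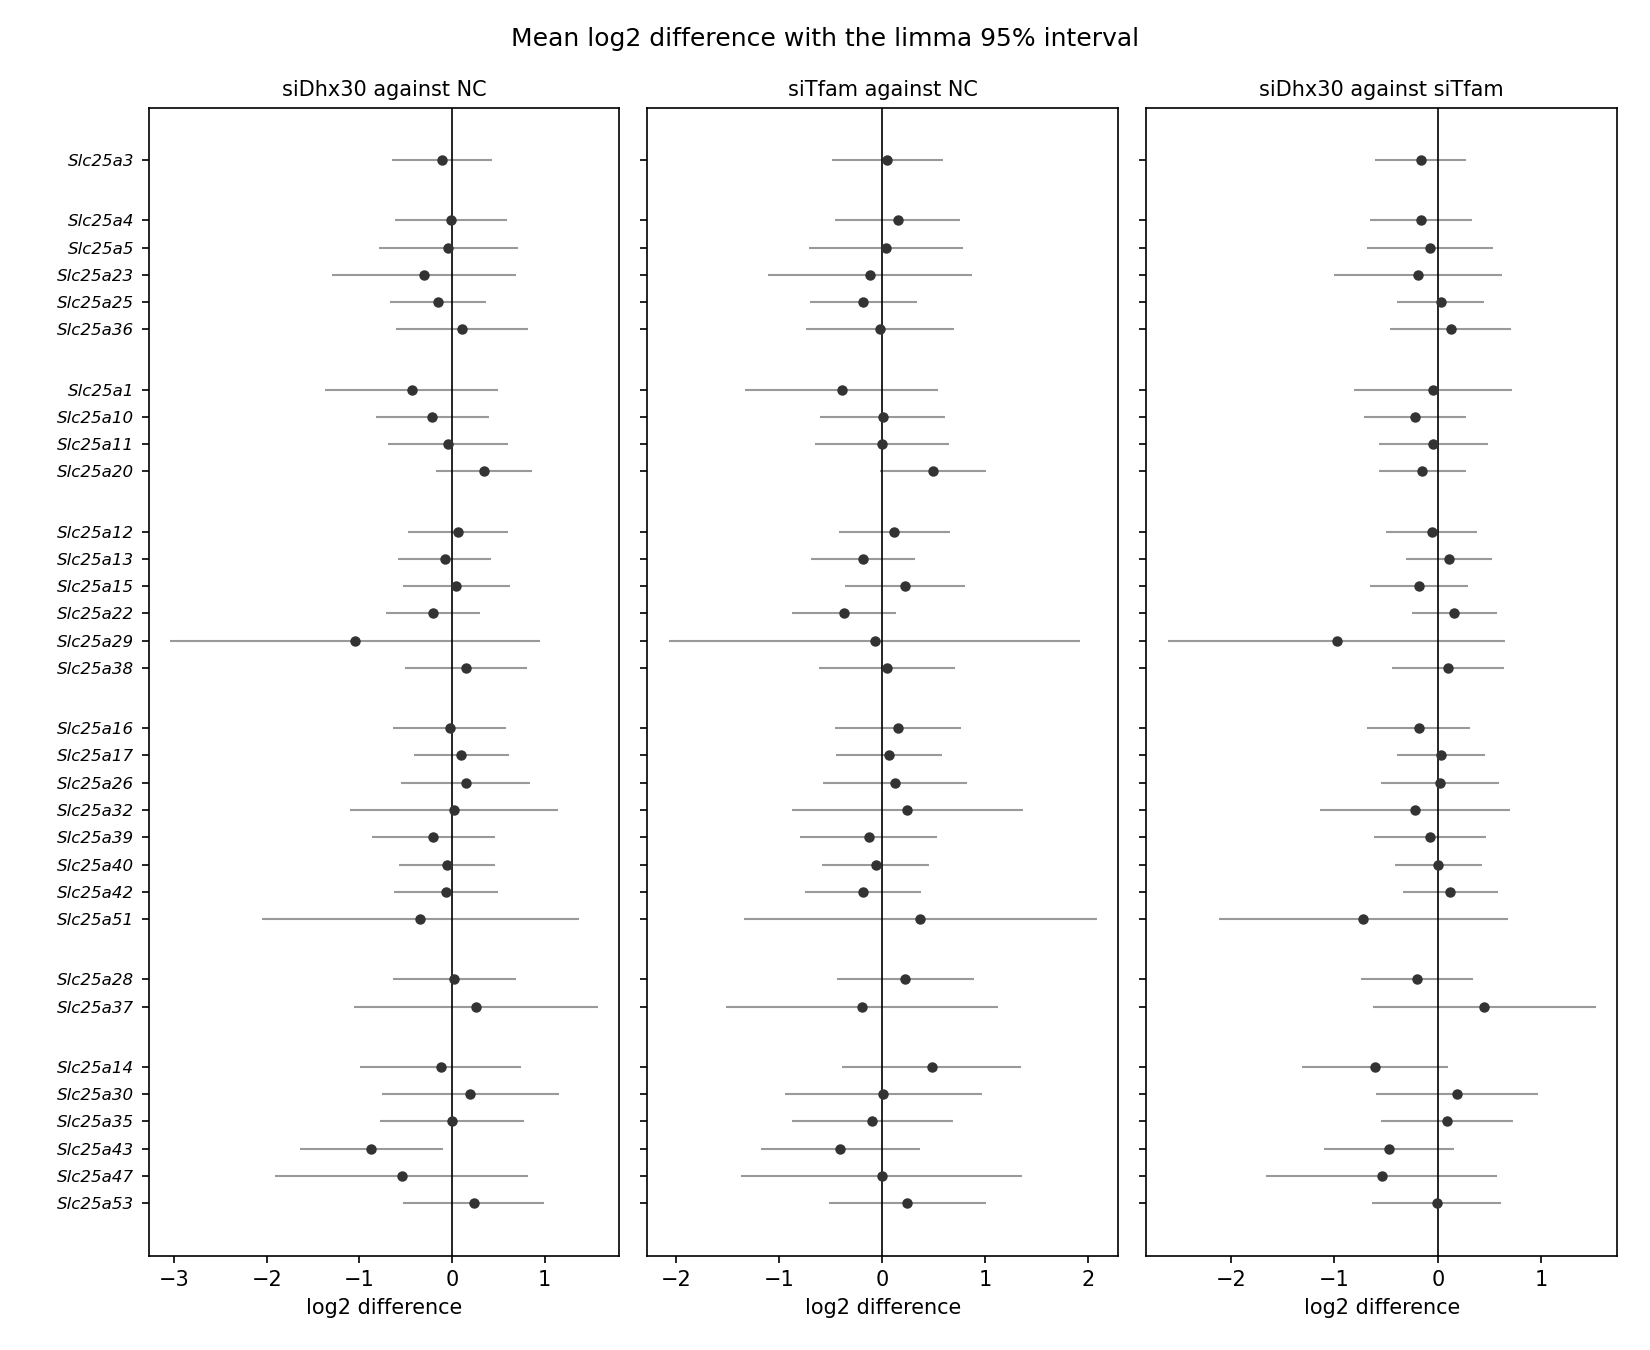
Mean log2 difference (x axis, log2 units) of the 32 carriers drawn, in each knockdown against NC and between the knockdowns, with bars for the 95% limma interval. In siDhx30 against NC the interval of Slc25a43 (-1.64 to -0.10) leaves out 0.

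The median absolute difference between the replicates was 0.230 for the carriers and 0.230 for all genes in siDhx30, and 0.196 and 0.242 in siTfam. A gap of 0.7, chosen after the values were seen, was exceeded by Slc25a37, Slc25a47 and Slc25a51 in siDhx30 and by Slc25a29 and Slc25a32 in siTfam.

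**Figure D3:**
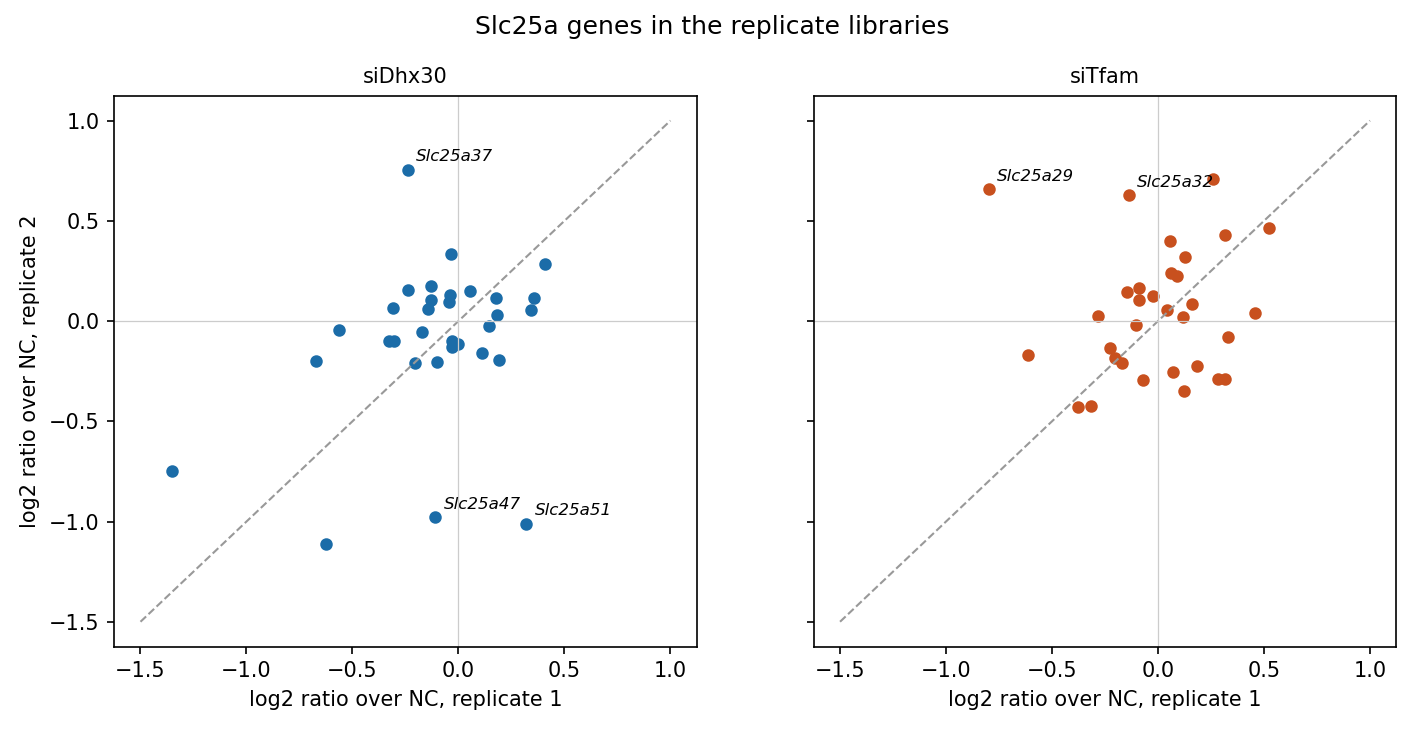
Log2 ratio over NC in replicate 2 (y axis) against replicate 1 (x axis) for the 32 carriers drawn, in siDhx30 and in siTfam, 1 point per carrier. The named carriers have replicates over 0.7 apart, among them Slc25a29 in siTfam at -0.80 and 0.66.

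Base composition moved with these values. Over all genes with an annotated transcript, Spearman's rho between GC content and the ratio was -0.294 and -0.0555 in siDhx30 and -0.210 and -0.0533 in siTfam, so it was steeper in the libraries numbered 1. Over the 33 carriers, which share these libraries and the NC sample, it was -0.559, -0.344, -0.413 and -0.193. The 8 carriers of highest GC content (Slc25a10, Slc25a29, Slc25a39, Slc25a1, Slc25a22, Slc25a47, Slc25a23 and Slc25a42) had medians of -0.32, -0.15, -0.19 and -0.23 in the 4 libraries. The 8 of lowest GC content (Slc25a30, Slc25a17, Slc25a3, Slc25a16, Slc25a53, Slc25a32, Slc25a36 and Slc25a40) had medians of 0.082, 0.044, 0.105 and 0.029. This split was made after the data were seen. In the tenth of all genes with the highest GC content the medians were -0.30, -0.068, -0.24 and -0.087. With length and GC trends removed from each library, no carrier passed the test. Taking out a trend that falls with GC content raises genes of high GC content and lowers those of low GC content. The direction of such moves was therefore largely set in advance, and they say nothing of a cause. Several carriers of high GC content that lay below NC moved closer to it. Slc25a22 went from -0.37 to -0.22 in siTfam and from -0.21 to -0.13 in siDhx30. Slc25a39 went from -0.20 to -0.070 in siDhx30 and from -0.13 to -0.048 in siTfam. Of the 8 of lowest GC content, Slc25a40 went from -0.057 to -0.17 and Slc25a3 from -0.11 to -0.19 in siDhx30, further from NC. Slc25a36 went from 0.11 to -0.0032 there. Slc25a43 was -0.82 in siDhx30.

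**Figure D4:**
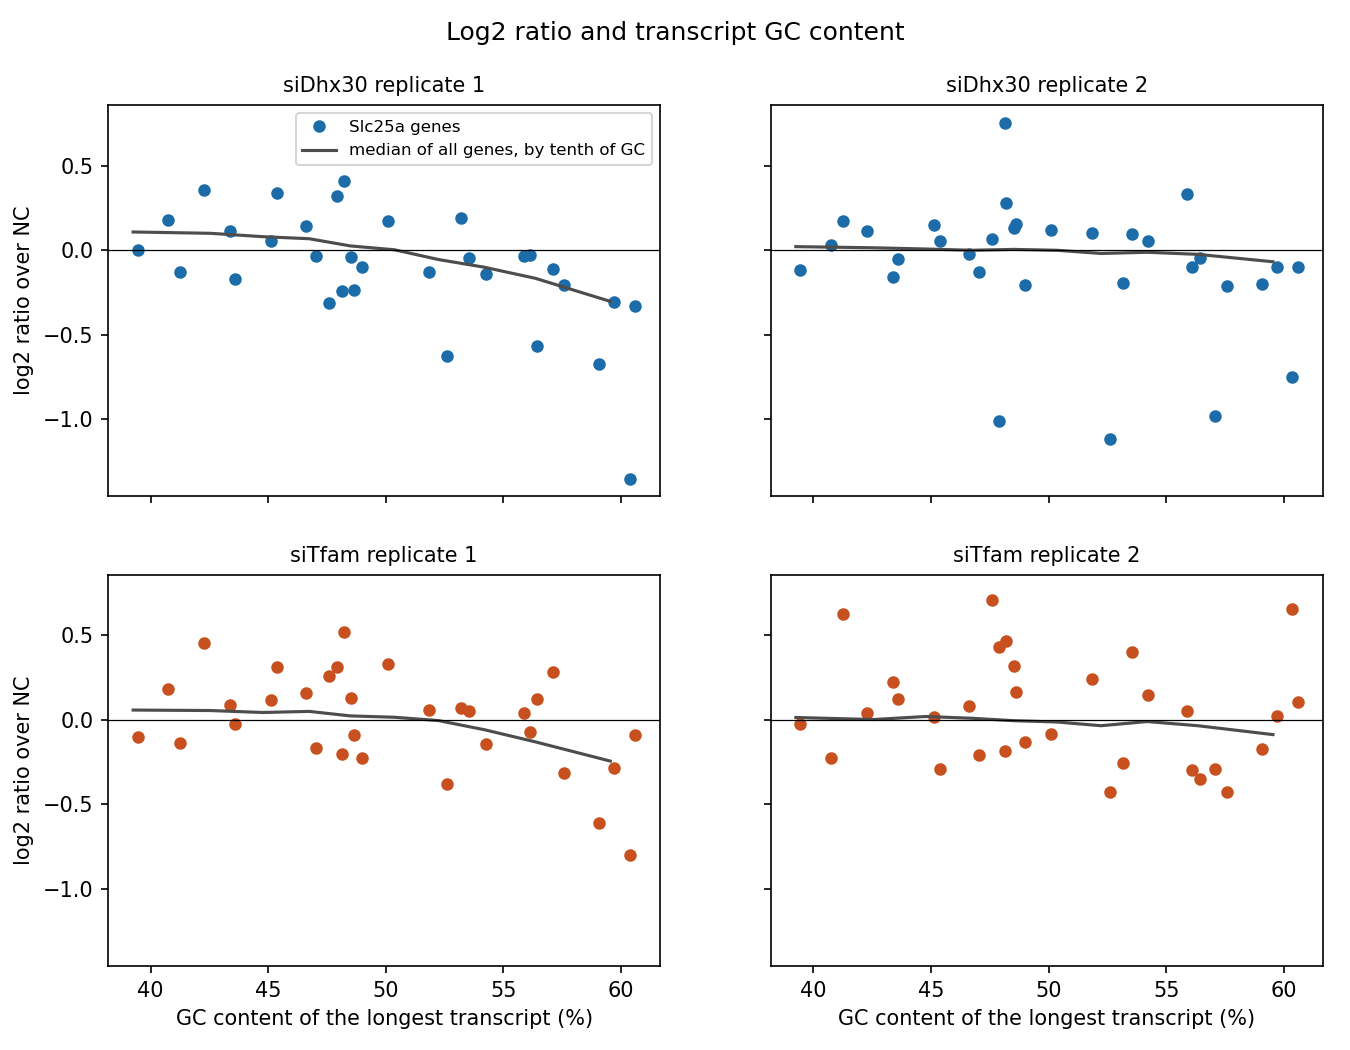
Log2 ratio over NC (y axis) against GC content of the longest transcript (x axis, percent) for the 32 carriers drawn, in each of the 4 siRNA libraries, with a line for the medians of all genes binned by GC content. Carriers of high GC content lie lower, most clearly in siDhx30 replicate 1, where rho over all 33 was -0.559.

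Genes that work with the carriers gave no call either. As 0 of 12088 genes were called in each comparison, the counts below do not set these lists apart. Of 3 family members under other names (Mtch1, Mtch2 and Ucp2), 0 passed the test, and Mtch2, an outer membrane insertase, read 0.12, 0.29, 0.20 and 0.39. Of 6 genes for the import of carriers, 0 passed. Timm9, an intermembrane space chaperone that escorts carrier precursors, read -0.39 and -0.23 in siDhx30 and -0.56 and -0.65 in siTfam. Its siTfam mean was -0.60 (SE 0.19, limma adjusted p = 0.776), below NC in all 4 libraries. The medians of the import list were -0.045 and -0.049 against NC.

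Of 17 other mitochondrial transporters, 0 passed, with medians of 0.026 and 0.078 against NC. Sfxn5, a sideroflexin, read 0.99 and 1.06 in siDhx30 and 1.07 and 0.60 in siTfam, above NC in all 4 libraries (siDhx30 mean 1.03, limma adjusted p = 0.804). Sfxn3, another sideroflexin, read -0.45 and 0.093 in siDhx30 and -0.77 and -1.42 in siTfam. Of 25 enzymes that use what the carriers bring in, 0 passed, with medians of 0.012 and 0.033. Nadk2, the mitochondrial NAD kinase, read -1.25 and -0.97 in siDhx30 and -1.24 and -1.03 in siTfam. Its means were -1.11 (SE 0.23, limma adjusted p = 0.673) and -1.13 (SE 0.23, limma adjusted p = 0.603). All 4 of its libraries lay below NC by close to 1 log2 unit, further than any carrier in siTfam. As for Timm9 and Sfxn5, the 4 values are set against the same NC library, whose error would move them together. Their agreement is therefore not 4 separate observations. These genes were named for having the largest differences of their lists.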

How the data were processed

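Total RNA of 5 libraries was sequenced after DNase treatment, fragmentation and template-switching cDNA synthesis, per the labels' protocols. Per the submitters' processing notes, tools were DESeq2, featureCounts, HISAT2 and bcl2fastq, on build GRCm38. Settings, strand use and filters are not given. The authors deposited log2 ratios per gene for the 4 siRNA libraries, with 0 value columns left unused. The column headers spell Dhx30 as DHAX30, read here as Dhx30.

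From these, ratios were turned to siRNA over NC. Then limma 3.58.1 (R 4.3.3, robust variance moderation) was fitted with NC set to 0 for every gene, the same as fitting log levels. The spread came from the siRNA replicates and was assumed to hold for NC. The fit had 2 residual degrees of freedom and a median prior of 2.02, over 12088 genes without missing values. P-values were adjusted by Benjamini-Hochberg, threshold 0.05, two-sided. The script was tested on simulated data. Of the genes, 12649 matched a GENCODE M21 symbol. Exons of 8 carriers overlap an exon of a gene on the other strand, and strand use is unknown. Among them are Slc25a10, Slc25a11, Slc25a23, Slc25a25, Slc25a26 (with Lrig1), Slc25a35 (with Rangrf) and Slc25a37.

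Values in every library are given for the 5 carriers of largest difference and the 3 of smallest p per comparison and for a list of known carriers, 24 in all, of which 1 is not reported here or drawn in the figures but stays in every count and median. Others were named with their values known. The carriers, lists, markers and cargo groups were chosen with earlier results of these data known. Alternatives left out each siRNA library, kept genes with a missing value, turned robust moderation off, added a replicate block, centred libraries, or removed length and GC trends over 11850 genes.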

Additional observations from a re-analysis of the deposited data

How the results depend on the processing

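No carrier passed the adjusted threshold under any alternative run, in any of the 3 comparisons (0 of 33 each time). No gene of the whole table passed in any of these fits either, so the count does not set the carriers apart and shows nothing of their stability. The SD of the 2 replicate medians was 0.0010 in siDhx30 against NC, 0.011 in siTfam against NC and 0.0205 between the knockdowns. Each SD rests on 2 values, so a move beyond it can be a very small shift. The median carrier difference moved beyond this SD in these cases. In siDhx30 against NC it was -0.032 with libraries centred, -0.032 with length and GC trends removed and -0.047 to -0.042 with 1 library left out. In siTfam against NC it was 0.0064 to 0.041 with 1 left out. In siDhx30 against siTfam it was -0.038 with trends removed, -0.084 without siDhx30 replicate 2 and -0.12 without siTfam replicate 1. The siTfam median with trends removed changed sign, to -0.0043, within that SD. Of 99 carrier differences, the sign changed in 14, 15, 8 and 19 without siDhx30 replicate 1, siDhx30 replicate 2, siTfam replicate 1 and siTfam replicate 2. It changed in 18 with trends removed, 2 with libraries centred and 0 under the other alternatives. The cause was not tested.

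Among the 23 carriers followed singly, the reversals with trends removed were as follows. Against NC in siDhx30 they were Slc25a11 at 0.019, Slc25a12 at -0.0034, Slc25a32 at -0.090, Slc25a36 at -0.0032 and Slc25a4 at 0.018. Against NC in siTfam they were Slc25a11 at -0.0017, Slc25a29 at 0.035, Slc25a3 at -0.0043, Slc25a47 at 0.040 and Slc25a5 at -0.028. Between the knockdowns they were Slc25a1 at 0.0098, Slc25a11 at 0.021 and Slc25a40 at -0.045. With libraries centred, Slc25a47 in siTfam was 0.0068.

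With 1 library left out, ranges that crossed 0 in siDhx30 against NC were -0.14 to 0.058 for Slc25a11, -0.022 to 0.15 for Slc25a12, -0.31 to 0.065 for Slc25a14, -0.040 to 0.13 for Slc25a15, -0.046 to 0.096 for Slc25a28, -0.13 to 0.17 for Slc25a32, -0.24 to 0.75 for Slc25a37, -0.036 to 0.33 for Slc25a38, -0.13 to 0.10 for Slc25a4, -0.11 to 9.6e-06 for Slc25a40, -0.24 to 0.16 for Slc25a5 and -1.01 to 0.32 for Slc25a51. In siTfam against NC they were -0.14 to 0.15 for Slc25a11, -0.082 to 0.33 for Slc25a26, -0.80 to 0.66 for Slc25a29, -0.023 to 0.12 for Slc25a3, -0.14 to 0.63 for Slc25a32, -0.22 to 0.18 for Slc25a36, -0.28 to 0.026 for Slc25a39, -0.29 to 0.28 for Slc25a47 and -0.090 to 0.16 for Slc25a5. Between the knockdowns they were -0.28 to 0.19 for Slc25a1, -0.19 to 0.10 for Slc25a11, -0.14 to 0.025 for Slc25a12, -0.18 to 0.23 for Slc25a26, -0.61 to 0.16 for Slc25a32, -0.077 to 0.33 for Slc25a36, -0.047 to 0.95 for Slc25a37, -0.084 to 0.29 for Slc25a38, -0.23 to 0.082 for Slc25a39, -0.052 to 0.062 for Slc25a40 and -0.27 to 0.12 for Slc25a5. The lone library left in a group is assumed to vary like the others.

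By their labels, libraries of the same number share only that number. Over all complete genes, their deviations from the group means correlated at r = 0.254, and the main fit leaves this out. With 2 libraries per group, both numbers give the same r. With a replicate block, 0 of 33 carriers and 0 of 12088 genes passed in each comparison, and the median differences stayed at -0.042, 0.0064 and -0.059. All-gene counts at unadjusted p under 0.05 went from 609, 739 and 337 to 899, 1031 and 566 with the block, and carriers from 1, 0 and 0 to 1, 0 and 2. The latter, between the knockdowns, were Slc25a14 (-0.61, unadjusted p = 0.0207 in limma with the block) and Slc25a47 (-0.54, unadjusted p = 0.0437). With genes of missing values kept, the counts were 968, 1164 and 380. All values of the genes so added lie above NC once the sign is turned, so these counts are not like those of complete genes. Between the knockdowns, leaving out siDhx30 replicate 1 gave 665 genes, 3 of them carriers (Slc25a37 at 0.95, Slc25a43 at -0.71 and Slc25a51 at -1.38). Leaving out siTfam replicate 1 gave 921 genes, 1 of them a carrier (Slc25a29 at -1.71). Depth is unknown, so what it limits cannot be stated.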

Other observations

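Of the carriers, 2 pairs lie within 100000 bases of each other (GRCm38, GENCODE M21). Slc25a29 (chromosome 12, 108825873 to 108835883, minus strand) and Slc25a47 (108836046 to 108856815, plus strand) are transcribed away from each other with 162 bases between them. Both were below NC in both siDhx30 libraries, at -1.35 and -0.75 for Slc25a29 and -0.11 and -0.98 for Slc25a47, with the lower value in different libraries. In siTfam they lay on opposite sides of NC in each library, at -0.80 and 0.66 for Slc25a29 and 0.28 and -0.29 for Slc25a47. Slc25a43 (chromosome X, 36743659 to 36777202) and Slc25a5 (36795651 to 36798807), both on the plus strand, are 18448 bases apart. Slc25a43 was below NC in all 4 libraries, while Slc25a5 read -0.24, 0.16, -0.090 and 0.16. The pairs were chosen after their values were seen, and no difference between neighbours was tested.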
